A study of Saccharomyces cerevisiae with 10 samples.

Results

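The chaperone and heat shock protein genes of budding yeast were followed in 4 overexpression strains and a wild type (WT). They were the 37 genes whose name in the deposited table was on a list of chaperones and co-chaperones, out of 5824 features, and all 37 matched the R64 annotation of the S288c genome. By the place where the protein is known to work, 25 belong to the cytosol and nucleus, 4 to the ribosome, 6 to mitochondria, 1 to the endoplasmic reticulum and 1 to the plasma membrane. Each strain is BY4741, a laboratory haploid, carrying LSM5, TIF35, UTP6 or PRP22 with its own promoter and terminator on a low-copy centromeric plasmid, and is called LSM5-OE, TIF35-OE, UTP6-OE or PRP22-OE. Lsm5 takes part in mRNA decay, Tif35 in translation initiation, Utp6 in rRNA processing and Prp22 in splicing, and the strains were kept as stocks of individual transformed colonies. The WT control has no more than the genotype WT in its label, and whether its RNA came from cells with the empty plasmid was not stated. All strains were grown without treatment in medium lacking uracil, which selects for the plasmid, with 2% glucose, and 2 independent cultures of each were taken at an OD600 of 0.4.

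RNA was read as 150 bp pairs and deposited as FPKM, the fragments of a gene per kilobase of its length, scaled to the depth of the library. FPKM values can be compared between genes, apart from genes about as short as a fragment. In each strain the overexpressed gene was higher than in WT, with a log2 fold change of 1.95 for LSM5, 1.37 for TIF35, 1.32 for UTP6 and 1.08 for PRP22, and both cultures lay above both WT cultures. The depth was estimated from the spacing of low values at 13453463 to 17351094 fragments per library, which gave each of the 37 genes between 96 (HSP10) and 57144 fragments (SSB1). The libraries of the second PRP22-OE, the first UTP6-OE and the first TIF35-OE culture had shorter fragments (an estimated 281 to 283 bases) than the other 7 (308 to 313 bases). A change in the RNA level of a culture can come from fewer cells that make a transcript or from less of it per cell, which cannot be told apart here.

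Molecular chaperones bind unfolded or partly folded proteins and help them fold, and most of them work as sets. Hsp70 proteins bind exposed stretches of a client, J-domain proteins bring the client and start ATP hydrolysis, and nucleotide exchange factors reset the cycle. Hsp90 takes clients over from Hsp70 with the help of co-chaperones, Hsp100 pulls proteins out of aggregates, and small heat shock proteins hold aggregating proteins. In yeast the transcription factor Hsf1 keeps many of these genes on and raises them in heat, by binding repeats of the unit GAA in alternating orientation, the heat shock element. A second pair of factors, Msn2 and Msn4, binds the stress response element and turns on a broad set of stress genes.

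The promoters of the genes at the extremes of the data, and of the Hsp90 pair, are shown here with their matches to these elements. Each sequence is the coding strand of the gene from 400 to 101 bases before the start codon in the R64 assembly (RefSeq), with matches in capitals. The letters searched, on both strands, were TTCNNGAA and GAANNTTC, which are 2 units of the heat shock element, and AGGGG with its complement CCCCT, the stress response element. BTN2 and HCH1 had the lowest mean log2 fold change of the 37 genes among those past the test in at least 2 strains, and HSP31 and SSE2 the highest.
BTN2 (chrVII:772054-772353, plus strand): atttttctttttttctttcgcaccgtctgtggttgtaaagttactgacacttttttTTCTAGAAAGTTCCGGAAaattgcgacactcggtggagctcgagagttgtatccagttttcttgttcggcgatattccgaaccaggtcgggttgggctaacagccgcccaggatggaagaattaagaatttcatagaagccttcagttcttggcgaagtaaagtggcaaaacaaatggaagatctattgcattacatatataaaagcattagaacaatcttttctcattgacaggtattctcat
HCH1 (chrXIV:108067-108366, plus strand): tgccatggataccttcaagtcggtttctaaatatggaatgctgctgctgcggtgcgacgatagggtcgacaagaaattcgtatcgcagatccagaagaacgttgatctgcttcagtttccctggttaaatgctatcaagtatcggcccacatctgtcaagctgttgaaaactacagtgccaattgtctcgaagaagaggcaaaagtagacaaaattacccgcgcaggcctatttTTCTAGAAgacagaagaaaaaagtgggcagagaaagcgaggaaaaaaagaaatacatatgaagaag
HSP31 (chrIV:1502261-1502560, minus strand): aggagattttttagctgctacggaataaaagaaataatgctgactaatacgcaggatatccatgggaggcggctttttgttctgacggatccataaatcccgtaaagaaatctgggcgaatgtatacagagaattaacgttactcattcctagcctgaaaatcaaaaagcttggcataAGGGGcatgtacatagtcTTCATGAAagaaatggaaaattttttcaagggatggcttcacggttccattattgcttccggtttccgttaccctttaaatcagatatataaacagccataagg
SSE2 (chrII:576097-576396, minus strand): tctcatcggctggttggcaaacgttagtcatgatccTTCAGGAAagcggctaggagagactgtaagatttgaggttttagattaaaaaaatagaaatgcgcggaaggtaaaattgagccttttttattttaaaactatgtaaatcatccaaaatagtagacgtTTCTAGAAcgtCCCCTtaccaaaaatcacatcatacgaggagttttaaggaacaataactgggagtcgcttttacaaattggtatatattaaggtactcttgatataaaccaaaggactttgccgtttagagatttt
HSP82 (chrXVI:98726-99025, minus strand): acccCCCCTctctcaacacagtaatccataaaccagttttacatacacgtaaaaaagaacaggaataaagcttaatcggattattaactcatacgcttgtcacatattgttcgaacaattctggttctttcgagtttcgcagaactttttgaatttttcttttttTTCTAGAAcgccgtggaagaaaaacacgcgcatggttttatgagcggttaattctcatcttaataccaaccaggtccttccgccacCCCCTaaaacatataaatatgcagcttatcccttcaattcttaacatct
HSC82 (chrXIII:631955-632254, plus strand): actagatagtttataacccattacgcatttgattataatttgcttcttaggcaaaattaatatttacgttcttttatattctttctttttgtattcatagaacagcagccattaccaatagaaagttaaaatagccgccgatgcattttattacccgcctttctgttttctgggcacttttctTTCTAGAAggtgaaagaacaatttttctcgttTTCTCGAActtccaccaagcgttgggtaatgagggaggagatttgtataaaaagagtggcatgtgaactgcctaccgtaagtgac
In BTN2 the 3 matches overlap in a single run of alternating units that begins 344 bases before the start codon. HCH1 has 1 pair of units and HSP31 and SSE2 have pairs of units together with a stress response element. The HSP82 window holds 1 pair and 2 stress response elements, and that of HSC82 holds 2 pairs and no stress response element. The windows of HCH1, SSE2 and HSC82 overlap the neighbouring genes POP3, NPL4 and RTP1. A match says only that these letters are present.

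The chaperone genes were lower in more cases than they were higher, above all in PRP22-OE. The test was limma on log2(FPKM + 0.5), run over 5768 features whose mean reached 1 FPKM, as it did for all 37 genes, and a gene was called at an adjusted p of at most 0.05. In PRP22-OE 21 of the 37 genes fell and 2 rose, or 62.2%, beside 19.3% of all features (12.2% lower and 7.09% higher). In UTP6-OE 10 fell and 5 rose, or 40.5%, beside 29.1% of all features (19.1% lower and 9.95% higher). In TIF35-OE 10 fell and 7 rose, or 45.9%, beside 30.3% of all features (20.7% lower and 9.62% higher). In LSM5-OE 5 fell and 1 rose, or 16.2%, beside 7.65% of all features (2.95% lower and 4.7% higher). The 4 comparisons share the same 2 WT cultures, so they are not independent of each other.

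The median log2 fold change of the 37 genes was -0.25 in PRP22-OE, beside -0.051 for all features. It was -0.14 in UTP6-OE (all features -0.069), -0.11 in TIF35-OE (all features -0.096) and -0.097 in LSM5-OE (all features -0.013). In PRP22-OE 30 genes had both cultures below both WT cultures, 3 had both above and 4 overlapped. The same count was not made over all features, so it is not read as particular to these genes. Scaling to the median of ratios between libraries, which brings the median of all features to between -0.008 and 0, moved the split in TIF35-OE to 9 higher and 4 lower, in UTP6-OE to 6 and 8, in PRP22-OE to 3 and 19 and in LSM5-OE to 1 and 7. Under that scaling 16.9% of all features were higher and 12.7% lower in TIF35-OE, 17.7% and 14.9% in UTP6-OE, 11.9% and 10.1% in PRP22-OE, and 6.21% and 3.81% in LSM5-OE. Falls outnumbered rises under both scalings in PRP22-OE, UTP6-OE and LSM5-OE, while in TIF35-OE the split turned towards rises. Among all features, too, falls outnumbered rises as deposited in PRP22-OE, UTP6-OE and TIF35-OE. With median of ratios scaling all features turned towards rises in these strains, so the turn in TIF35-OE is not particular to the chaperone genes.

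**Figure D1:**
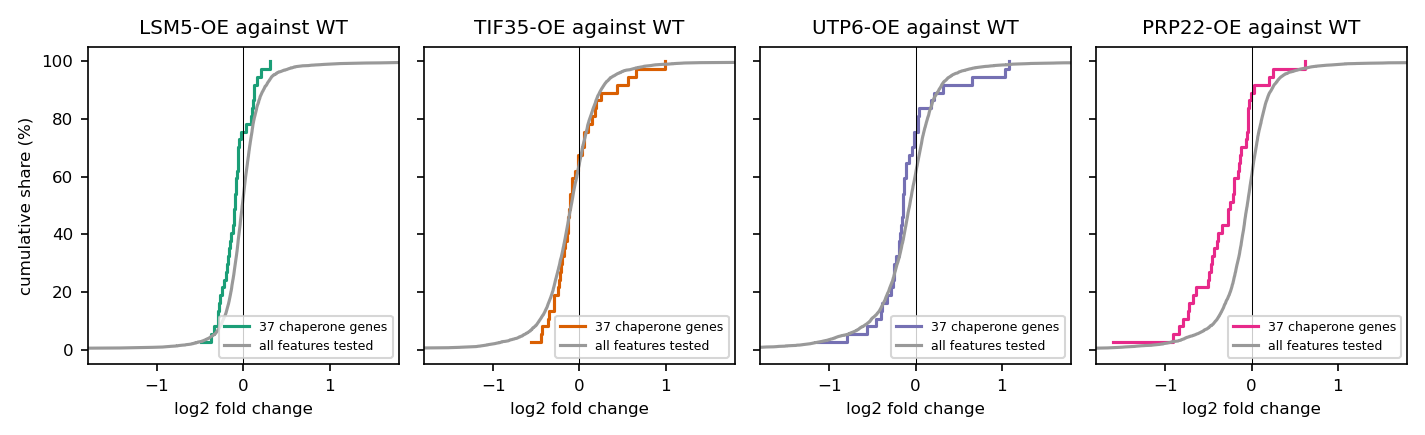
Cumulative share (%) of the log2 fold changes of the 37 chaperone genes (coloured steps) and of all features tested (grey line) in each strain against WT, on FPKM as deposited. In PRP22-OE the coloured line lies left of the grey line over most of its course, with medians of -0.25 and -0.051, while in TIF35-OE the lines lie close together near the middle.

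**Figure D2:**
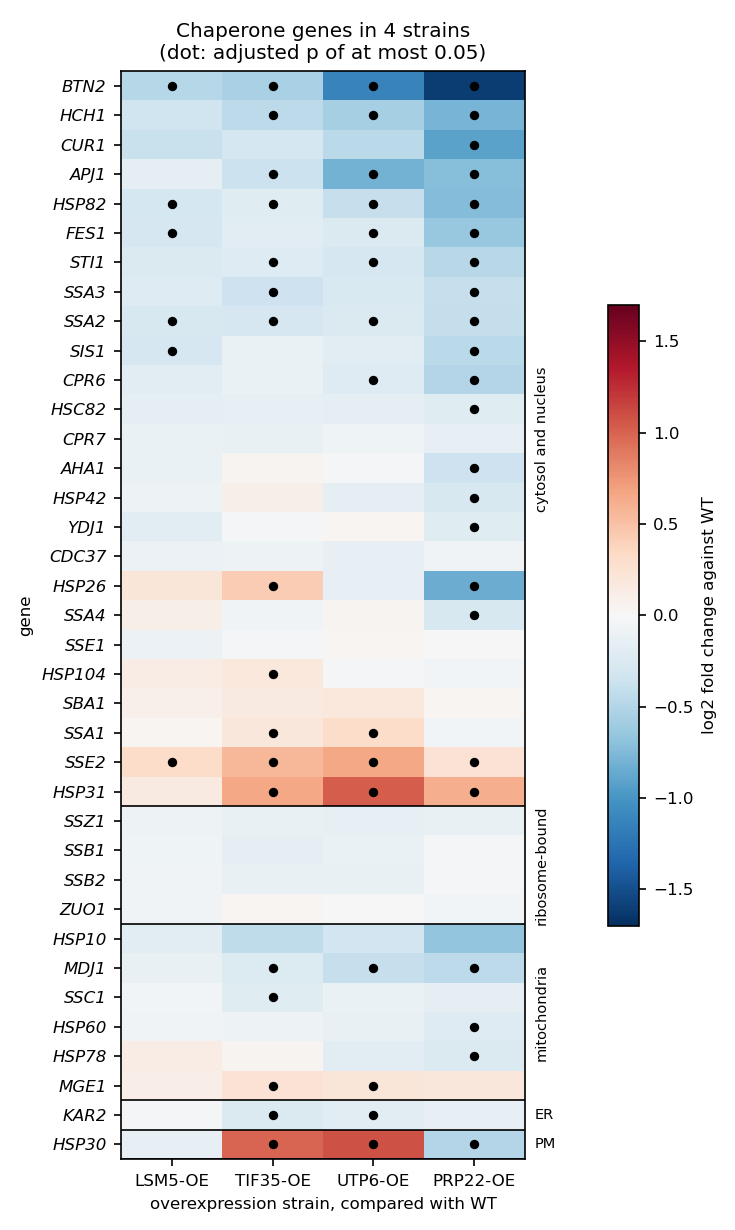
Log2 fold change against WT (colour) of the 37 chaperone genes in the 4 strains, grouped by the place where the protein works (ER, endoplasmic reticulum; PM, plasma membrane), with a dot for an adjusted p of at most 0.05. The column of PRP22-OE holds 21 dots on falls and 2 on rises, and the 4 ribosome-bound genes hold no dot in any strain.

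These counts depended on single cultures, since 2 cultures per strain were fitted with 5 residual degrees of freedom. In LSM5-OE 2 or 3 genes were called without the first or second LSM5-OE culture and 0 without either WT culture, where 12 and 8 had an unadjusted p under 0.05. In TIF35-OE 8 were called without either TIF35-OE culture, 6 without the first and 7 without the second WT culture. In UTP6-OE 9 were called without its first culture and 8 without either WT culture. In PRP22-OE 15 were called without its second culture and 15 without the second WT culture. With the 3 libraries of shorter fragments left out, which leaves 1 culture of 3 strains, 0 genes were called in LSM5-OE (14 at an unadjusted p under 0.05), 5 in TIF35-OE, 7 in UTP6-OE and 9 in PRP22-OE.

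Of the 148 results (37 genes in 4 strains), 61 were called, 15 higher and 46 lower, and 19 of these had an absolute log2 fold change of 0.5 or more. There were 28 genes called in at least 1 strain and 9 in none. How many of all features were called in at least 1 strain, or in several, was not counted. HSP82, SSA2 and BTN2 fell in all 4 strains and SSE2 rose in all 4. APJ1, STI1, FES1, MDJ1 and HCH1 fell in 3 strains, HSP31 rose in 3, and HSP26 and HSP30 rose in some strains and fell in PRP22-OE. None of the 61 calls turned its direction under any alternative tried, and 18 stayed past the threshold under every one. These 18 were the falls of BTN2 and APJ1 in UTP6-OE and PRP22-OE, those of HSP82, STI1, HCH1, CPR6, FES1 and HSP26 in PRP22-OE, the rises of HSP31 in PRP22-OE, TIF35-OE and UTP6-OE, those of SSE2 and HSP30 in TIF35-OE and UTP6-OE, and that of SSA1 in UTP6-OE. Every other call was lost under at least 1 alternative, also where no loss is named below.

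Both Hsp90 genes had lower FPKM than WT in every strain culture, with the larger log2 fold change for the inducible copy in each strain. HSP82 (YPL240C, chromosome XVI from 96496 to 98625 on the minus strand), the stress-inducible Hsp90, had 320.3 and 338 FPKM in LSM5-OE, 339 and 361 FPKM in TIF35-OE, 292 and 324 FPKM in UTP6-OE, 247 and 239 FPKM in PRP22-OE, against 398 and 412 FPKM in WT. Both cultures of every strain lay below both WT cultures, and the PRP22-OE cultures were the lowest. The log2 fold change was -0.30 in LSM5-OE, -0.21 in TIF35-OE, -0.40 in UTP6-OE and -0.74 in PRP22-OE (standard error 0.066, adjusted p = 0.0363, 0.045, 0.00378 and 0.000247 from limma). The fall in TIF35-OE was not called after scaling by the median of ratios (-0.12, adjusted p = 0.118). Without a culture, those in LSM5-OE and TIF35-OE were not called whichever was left out, with an adjusted p of 0.0597 to 0.191 in LSM5-OE and 0.0747 to 0.212 in TIF35-OE.

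HSC82 (YMR186W, chromosome XIII from 632355 to 634472 on the plus strand), the Hsp90 copy that is made at a high level without stress, had 1236 and 1239 FPKM in LSM5-OE, 1235 and 1294 FPKM in TIF35-OE, 1201 and 1302 FPKM in UTP6-OE, 1237 and 1183 FPKM in PRP22-OE, against 1406 and 1379 FPKM in WT. It was more abundant than HSP82 in every culture. Every strain culture lay below both WT cultures, but only the fall in PRP22-OE was called (-0.20, adjusted p = 0.0479). That call was lost without any 1 culture of PRP22-OE or WT (adjusted p between 0.0859 and 0.211) and after scaling by the median of ratios (0.0714). The ratio of HSP82 to HSC82, which does not depend on the scaling of a library, was 0.259 and 0.273 in LSM5-OE, 0.275 and 0.279 in TIF35-OE, 0.243 and 0.249 in UTP6-OE and 0.200 and 0.202 in PRP22-OE, against 0.283 and 0.299 in WT. It was below both WT values in every strain culture, and lowest in PRP22-OE. The FPKM of both genes together was 1484 and 1422 in PRP22-OE, against 1804 and 1791 in WT, and after scaling by the median of ratios 1470.3 and 1441 in PRP22-OE, against 1754 and 1722 in WT. The coding sequences are 91.6% identical, with no identical stretch of 150 bases, so few fragments are ambiguous between them.

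Of the 7 Hsp90 co-chaperone genes, 0 fell in LSM5-OE (4 by limma at an unadjusted p under 0.05), 2 in TIF35-OE, 3 in UTP6-OE and 4 in PRP22-OE, and none rose. Of all features, 2.95% fell in LSM5-OE, 20.7% in TIF35-OE, 19.1% in UTP6-OE and 12.2% in PRP22-OE. HCH1 (YNL281W, chromosome XIV from 108467 to 108928 on the plus strand), a relative of the Hsp90 activator Aha1, had 469.5 and 451 FPKM in LSM5-OE, 484 and 374 FPKM in TIF35-OE, 404 and 383 FPKM in UTP6-OE, 309 and 362 FPKM in PRP22-OE, against 590.4 and 572 FPKM in WT. All 8 strain cultures lay below both WT cultures, with log2 fold changes of -0.34 in LSM5-OE, -0.45 in TIF35-OE, -0.56 in UTP6-OE and -0.79 in PRP22-OE (standard error 0.12, adjusted p = 0.15, 0.0285, 0.0119 and 0.00382 from limma). The call in TIF35-OE was lost without its second culture (adjusted p = 0.113), without the first or second WT culture (0.12 and 0.0953) and after scaling by the median of ratios (0.0865). That in UTP6-OE was lost without its second culture (0.0698) or without the first or second WT culture (0.065 and 0.051).

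STI1, which links Hsp70 to Hsp90, had log2 fold changes of -0.24 in LSM5-OE, -0.22 in TIF35-OE, -0.28 in UTP6-OE and -0.47 in PRP22-OE (adjusted p = 0.0525, 0.0301, 0.0119 and 0.00167 from limma). STI1 was not called in TIF35-OE after scaling by the median of ratios (adjusted p = 0.0931). Its calls in TIF35-OE and UTP6-OE were lost without either WT culture, with an adjusted p of 0.119 and 0.122 in TIF35-OE and of 0.0629 and 0.0649 in UTP6-OE. The prolyl isomerase CPR6 fell in PRP22-OE (-0.50, adjusted p = 0.000817) and in UTP6-OE (-0.23, adjusted p = 0.0191), the second call being lost without the first UTP6-OE culture (0.104) or the first or second WT culture (0.0572 and 0.125). AHA1, the activator of the Hsp90 ATPase, fell in PRP22-OE only by this test (-0.35, adjusted p = 0.00977), a call lost without the second PRP22-OE culture (0.0529) or the second WT culture (0.0766). CPR7, SBA1 (the p23 homologue) and the kinase co-chaperone CDC37 were not called in any strain, with log2 fold changes between -0.14 (CPR7 in PRP22-OE) and 0.18 (SBA1 in UTP6-OE). After scaling by the median of ratios SBA1 was called higher in TIF35-OE (adjusted p = 0.0145) and UTP6-OE (0.0109).

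**Figure D3:**
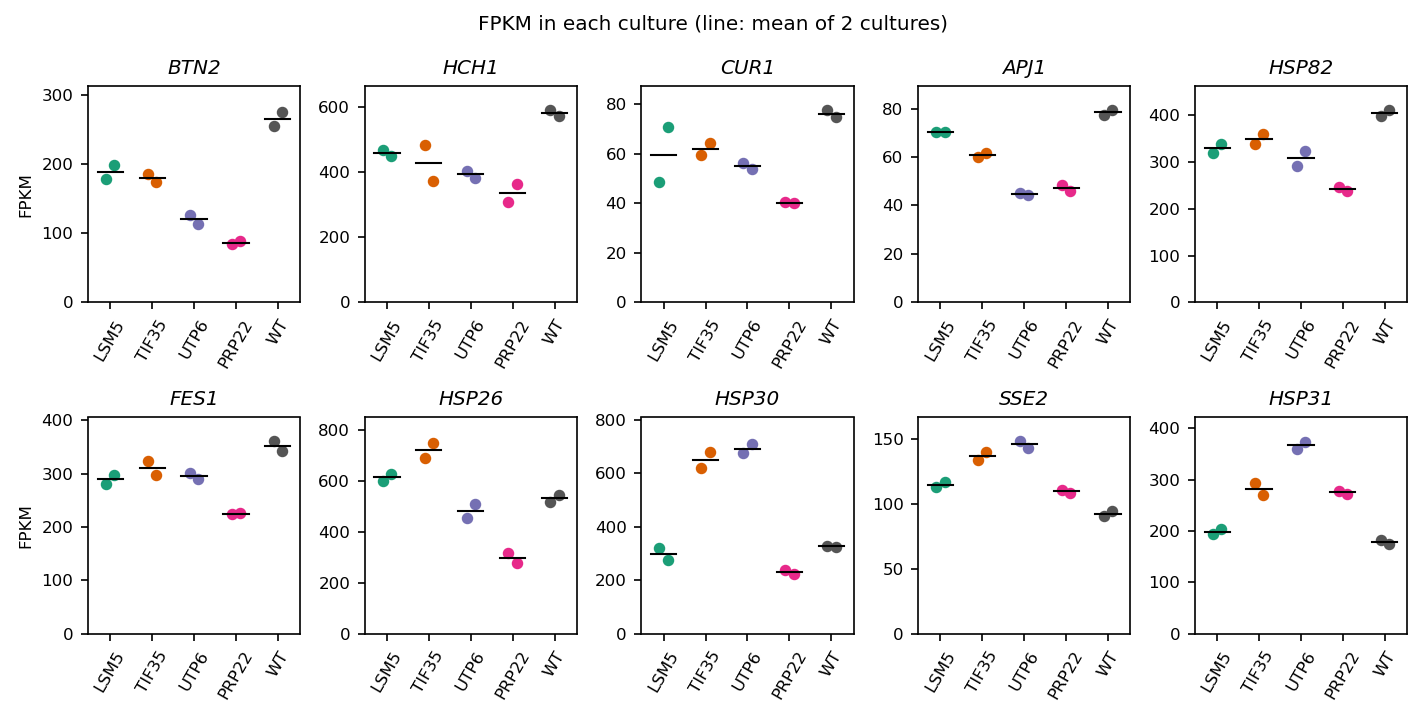
FPKM in each culture (points) and the mean of the 2 cultures (line) of the 10 chaperone genes that were called with an absolute log2 fold change of 0.5 or more in at least 1 strain, for the 4 overexpression strains (named by the overexpressed gene) and WT. BTN2 has 84.5 and 88.8 FPKM in PRP22-OE, against 255 and 275 FPKM in WT, while HSP31 and SSE2 lie above WT in all 4 strains and HSP30 lies above WT in TIF35-OE and UTP6-OE only.

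The 4 cytosolic SSA genes, the general Hsp70 proteins of the cytosol, did not move together. SSA1 (YAL005C, chromosome I from 139503 to 141431 on the minus strand) had 1002 and 1009 FPKM in LSM5-OE, 1088 and 1152 FPKM in TIF35-OE, 1183 and 1262 FPKM in UTP6-OE, 970.2 and 923 FPKM in PRP22-OE, against 988 and 974 FPKM in WT. The TIF35-OE and UTP6-OE cultures lay above both WT cultures, those of LSM5-OE lay slightly above and those of PRP22-OE slightly below, with log2 fold changes of 0.035 in LSM5-OE, 0.19 in TIF35-OE, 0.32 in UTP6-OE and -0.052 in PRP22-OE (standard error 0.057, adjusted p = 0.775, 0.0401, 0.00545 and 0.568 from limma). The call in TIF35-OE was lost without any 1 culture of TIF35-OE or WT (adjusted p between 0.0782 and 0.179). SSA2 (YLL024C, chromosome XII from 95566 to 97485 on the minus strand), the copy with the highest level, had 1478 and 1478 FPKM in LSM5-OE, 1446 and 1461 FPKM in TIF35-OE, 1463 and 1535 FPKM in UTP6-OE, 1379 and 1306 FPKM in PRP22-OE, against 1788 and 1770.2 FPKM in WT. All strain cultures lay below both WT cultures, and the log2 fold changes were -0.27 in LSM5-OE, -0.29 in TIF35-OE, -0.25 in UTP6-OE and -0.41 in PRP22-OE (standard error 0.052, adjusted p = 0.0242, 0.00648, 0.0114 and 0.00171 from limma). The call of SSA2 in PRP22-OE did not stay under every alternative, with log2 fold changes between -0.445 and -0.356. The call in LSM5-OE was lost without any 1 culture of LSM5-OE or WT (adjusted p between 0.0611 and 0.168), that in TIF35-OE without the first WT culture (0.0522), and that in UTP6-OE without its first culture (0.0674) or the first or second WT culture (0.0746 and 0.0642).

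The ratio of SSA1 to SSA2 was 0.678 and 0.683 in LSM5-OE, 0.753 and 0.788 in TIF35-OE, 0.808 and 0.822 in UTP6-OE and 0.704 and 0.706 in PRP22-OE, against 0.553 and 0.55 in WT. It was higher than in WT in all 8 strain cultures, with no overlap. The coding sequences of SSA1 and SSA2 are 96.4% identical and share 35.6% of their windows of 150 bases, so reads from the shared windows could be given to either gene and the ratio is uncertain to that extent. The FPKM of SSA1 to SSA4 together was 2451 and 2335 in PRP22-OE, against 2900.2 and 2878 in WT. With median of ratios scaling the sum was 2428 and 2366 in PRP22-OE, against 2821 and 2768 in WT.

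SSA3 (YBL075C, chromosome II from 84499 to 86448 on the minus strand), a low-level stress-inducible copy, had 32.9 and 36.2 FPKM in LSM5-OE, 31.7 and 31.5 FPKM in TIF35-OE, 32.3 and 35.0 FPKM in UTP6-OE, 28.4 and 33.3 FPKM in PRP22-OE, against 39.9 and 40.8 FPKM in WT. All strain cultures were below both WT cultures, and the falls in TIF35-OE (-0.35, adjusted p = 0.0232) and PRP22-OE (-0.39, adjusted p = 0.0207) were called. After scaling by the median of ratios the fall in TIF35-OE was not called (adjusted p = 0.0591). The call in TIF35-OE was lost without any 1 culture of TIF35-OE or WT (0.0858 to 0.106) and that in PRP22-OE without its first culture (0.1) or the first or second WT culture (0.0853 and 0.11). SSA4 (YER103W, chromosome V from 364589 to 366517 on the plus strand), the copy known as strongly heat-induced, had 92.5 and 97.7 FPKM in LSM5-OE, 84.3 and 85.8 FPKM in TIF35-OE, 90.4 and 92.2 FPKM in UTP6-OE, 73.7 and 72.8 FPKM in PRP22-OE, against 83.6 and 93.7 FPKM in WT. Only in PRP22-OE did both cultures lie outside the range of WT, below it (-0.27, adjusted p = 0.0205), and the call was lost without the first or second PRP22-OE culture (0.0725 and 0.0967) or the second WT culture (0.126).

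**Figure D4:**
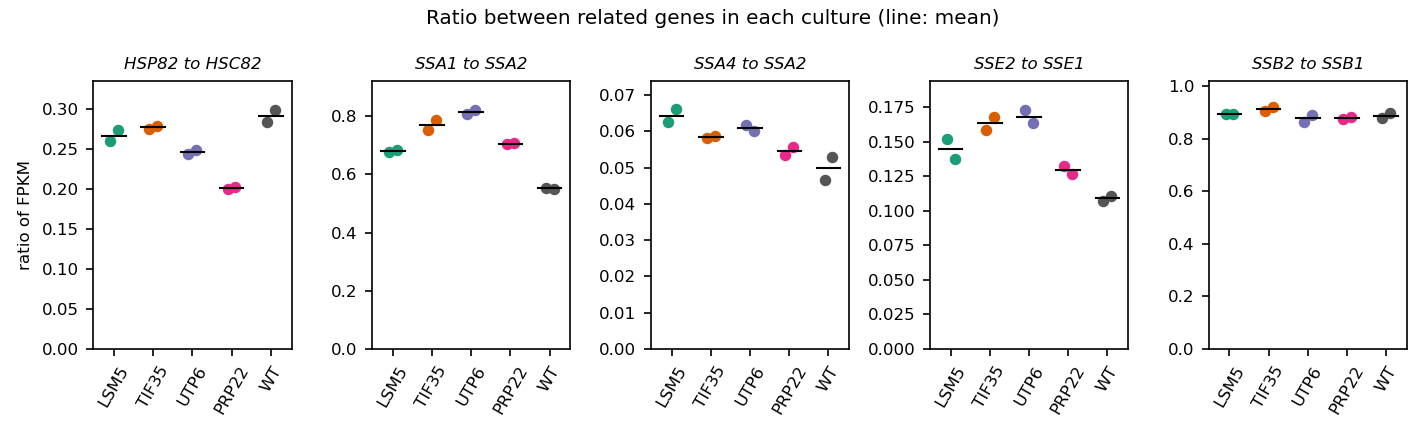
Ratio of FPKM between related chaperone genes in each culture (points) with the mean of the 2 cultures (line), for the 4 overexpression strains (named by the overexpressed gene) and WT. The ratio of HSP82 to HSC82 is below WT in all strains and lowest in PRP22-OE, those of SSA1 to SSA2 and SSE2 to SSE1 are above WT in all strains, and that of SSB2 to SSB1 lies between 0.866 and 0.923 in all cultures.

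Among the exchange factors that reset Hsp70, SSE2 and FES1 moved in opposite directions. SSE2 (YBR169C, chromosome II from 573915 to 575996 on the minus strand), the less abundant Hsp110, had 113 and 117 FPKM in LSM5-OE, 134 and 140.1 FPKM in TIF35-OE, 149 and 144 FPKM in UTP6-OE, 111 and 109 FPKM in PRP22-OE, against 90.9 and 94.7 FPKM in WT. Every strain culture lay above both WT cultures, with log2 fold changes of 0.31 in LSM5-OE, 0.56 in TIF35-OE, 0.65 in UTP6-OE and 0.24 in PRP22-OE (standard error 0.049, adjusted p = 0.0117, 0.000295, 7.17e-05 and 0.0127 from limma). The call in LSM5-OE was lost without the first or second WT culture (adjusted p = 0.103 and 0.0592), and that in PRP22-OE without its first or second culture (0.0665 and 0.0524) or the first WT culture (0.094). Its more abundant relative SSE1 (YPL106C, chromosome XVI from 350194 to 352275 on the minus strand) had 744 and 853 FPKM in LSM5-OE, 845 and 833 FPKM in TIF35-OE, 862 and 880.1 FPKM in UTP6-OE, 837 and 860.5 FPKM in PRP22-OE, against 850.5 and 853 FPKM in WT. It was not called in any strain, with an adjusted p of 0.461 to 0.971. The ratio of SSE2 to SSE1 was 0.152 and 0.138 in LSM5-OE, 0.159 and 0.168 in TIF35-OE, 0.173 and 0.163 in UTP6-OE and 0.133 and 0.126 in PRP22-OE, against 0.107 and 0.111 in WT. These coding sequences are 72.2% identical.

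FES1 (YBR101C, chromosome II from 443821 to 444693 on the minus strand), the cytosolic exchange factor of the SSA proteins, had 281 and 298 FPKM in LSM5-OE, 325 and 297 FPKM in TIF35-OE, 302 and 290.2 FPKM in UTP6-OE, 224 and 226 FPKM in PRP22-OE, against 362 and 342 FPKM in WT. All strain cultures were below both WT cultures, and those of PRP22-OE were the lowest, with log2 fold changes of -0.28 in LSM5-OE, -0.18 in TIF35-OE, -0.25 in UTP6-OE and -0.65 in PRP22-OE (standard error 0.061, adjusted p = 0.0354, 0.059, 0.0192 and 0.000321 from limma). The fall in UTP6-OE was not called after scaling by the median of ratios (adjusted p = 0.0705). The call in LSM5-OE was lost without any 1 culture of LSM5-OE or WT (0.0527 to 0.206) and that in UTP6-OE without any 1 culture of UTP6-OE or WT (0.0513 to 0.121).

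The J-domain partners of cytosolic Hsp70 fell in PRP22-OE. APJ1 (YNL077W, chromosome XIV from 481391 to 482977 on the plus strand), a J-domain protein of the cytosol and nucleus, had 70.4 and 70.3 FPKM in LSM5-OE, 60.2 and 61.5 FPKM in TIF35-OE, 45.3 and 44.4 FPKM in UTP6-OE, 48.5 and 46.0 FPKM in PRP22-OE, against 77.4 and 79.4 FPKM in WT. No strain culture overlapped with WT, and the UTP6-OE and PRP22-OE cultures lay under all others, with log2 fold changes of -0.16 in LSM5-OE, -0.36 in TIF35-OE, -0.80 in UTP6-OE and -0.73 in PRP22-OE (standard error 0.048, adjusted p = 0.0973, 0.0017, 2.31e-05 and 5.49e-05 from limma). SIS1, the essential nuclear and cytosolic J-domain protein, fell in PRP22-OE (-0.46, adjusted p = 0.00216) and LSM5-OE (-0.29, adjusted p = 0.0354). Its call in PRP22-OE did not stay under every alternative, with log2 fold changes between -0.478 and -0.413. In LSM5-OE SIS1 was not called after scaling by the median of ratios (adjusted p = 0.0575). The call of SIS1 in LSM5-OE was lost without its second culture (0.0743) or the first or second WT culture (0.187 and 0.143). YDJ1, the most abundant of the 3, fell in PRP22-OE (-0.20, adjusted p = 0.033). That call was lost without the second PRP22-OE culture or the first or second WT culture. It was also lost after scaling by the median of ratios (adjusted p = 0.0507).

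The small heat shock proteins and the disaggregase differed between strains. HSP26 (YBR072W, chromosome II from 382030 to 382674 on the plus strand), whose oligomers hold aggregating proteins, had 601 and 628 FPKM in LSM5-OE, 691 and 749 FPKM in TIF35-OE, 454 and 509 FPKM in UTP6-OE, 317 and 277 FPKM in PRP22-OE, against 519 and 545 FPKM in WT. The cultures of TIF35-OE lay above both WT cultures and those of PRP22-OE below them, with log2 fold changes of 0.21 in LSM5-OE, 0.44 in TIF35-OE, -0.14 in UTP6-OE and -0.84 in PRP22-OE (standard error 0.085, adjusted p = 0.203, 0.00902, 0.239 and 0.00048 from limma). The call in TIF35-OE was lost without its second culture (0.0538) or the first WT culture (0.0614). HSP42, the small heat shock protein present in unstressed cells, fell in PRP22-OE (-0.28, adjusted p = 0.018), a call lost without any 1 culture of PRP22-OE or WT (0.0547 to 0.121). HSP104 (YLL026W, chromosome XII from 88623 to 91349 on the plus strand), the Hsp100 disaggregase, had 457 and 475 FPKM in LSM5-OE, 468 and 501 FPKM in TIF35-OE, 411 and 432 FPKM in UTP6-OE, 419 and 407 FPKM in PRP22-OE, against 424 and 428 FPKM in WT. It was called in TIF35-OE only (0.18, adjusted p = 0.0378), a call lost without any 1 culture of TIF35-OE or WT (0.0594 to 0.181), and its log2 fold change in PRP22-OE was -0.044 (adjusted p = 0.614).

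The sorting factors showed the largest fall of the 37 genes. BTN2 (YGR142W, chromosome VII from 772454 to 773686 on the plus strand), which gathers misfolded proteins into deposits, had 179 and 199 FPKM in LSM5-OE, 186 and 175 FPKM in TIF35-OE, 127 and 114 FPKM in UTP6-OE, 84.5 and 88.8 FPKM in PRP22-OE, against 255 and 275 FPKM in WT. No strain culture overlapped with WT, and the PRP22-OE cultures were the lowest. The log2 fold changes were -0.49 in LSM5-OE, -0.56 in TIF35-OE, -1.13 in UTP6-OE and -1.61 in PRP22-OE (standard error 0.079, adjusted p = 0.0121, 0.00241, 4.84e-05 and 2.04e-05 from limma), and the level was 0.328 of that in WT in PRP22-OE and 0.456 of it in UTP6-OE. The call in LSM5-OE was lost without the first LSM5-OE culture (0.0549) or the first or second WT culture (0.0597 and 0.0876). CUR1 (YPR158W, chromosome XVI from 843262 to 844020 on the plus strand), a relative of BTN2 that helps to carry misfolded proteins to the nucleus, had 48.5 and 71.0 FPKM in LSM5-OE, 59.6 and 64.6 FPKM in TIF35-OE, 56.5 and 54.0 FPKM in UTP6-OE, 40.6 and 40.0 FPKM in PRP22-OE, against 77.6 and 75.0 FPKM in WT. All strain cultures lay below both WT cultures, the LSM5-OE cultures lay far apart, and only the fall in PRP22-OE was called (-0.91, standard error 0.15, adjusted p = 0.00525). That call did not stay under every alternative, with log2 fold changes between -0.939 and -0.863. In LSM5-OE CUR1 was called without the second culture, at a log2 fold change of -0.65 (adjusted p = 0.00678).

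The 2 heat shock proteins outside the folding machines had the largest rises. HSP31 (YDR533C, chromosome IV from 1501447 to 1502160 on the minus strand), a DJ-1 family protein that detoxifies methylglyoxal and also acts as a chaperone, had 194 and 204 FPKM in LSM5-OE, 293 and 271 FPKM in TIF35-OE, 360.2 and 372 FPKM in UTP6-OE, 278 and 272 FPKM in PRP22-OE, against 183 and 174 FPKM in WT. Every strain culture lay above both WT cultures, and the log2 fold changes were 0.16 in LSM5-OE, 0.66 in TIF35-OE, 1.04 in UTP6-OE and 0.62 in PRP22-OE (standard error 0.058, adjusted p = 0.162, 0.000295, 1.69e-05 and 0.000298 from limma). HSP30 (YCR021C, chromosome III from 156109 to 157107 on the minus strand), a membrane protein that restrains the proton pump Pma1, had 321 and 274 FPKM in LSM5-OE, 619 and 678 FPKM in TIF35-OE, 675 and 711 FPKM in UTP6-OE, 239 and 222 FPKM in PRP22-OE, against 328 and 325 FPKM in WT. The cultures of TIF35-OE and UTP6-OE were above all others, those of PRP22-OE were below all others, and those of LSM5-OE were below WT by less. The log2 fold changes were -0.14 in LSM5-OE, 0.99 in TIF35-OE, 1.08 in UTP6-OE and -0.50 in PRP22-OE (standard error 0.084, adjusted p = 0.391, 0.000256, 8.09e-05 and 0.00571 from limma). The call in PRP22-OE did not stay under every alternative, with log2 fold changes between -0.554 and -0.447. No pair of heat shock element units and no stress response element was found in the HSP30 window.

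The 4 ribosome-bound chaperone genes were not called by limma in any strain, and only SSB1 in TIF35-OE had an unadjusted p under 0.05. SSB1 and SSB2 encode Hsp70 proteins that bind nascent chains, and SSZ1 and ZUO1 encode the ribosome-associated complex that assists them. SSB1 (YDL229W, chromosome IV from 44065 to 45906 on the plus strand) had 2206 and 2187 FPKM in LSM5-OE, 1984 and 2126 FPKM in TIF35-OE, 2080.0 and 2195 FPKM in UTP6-OE, 2346 and 2193 FPKM in PRP22-OE, against 2314 and 2302 FPKM in WT. SSB2 (YNL209W, chromosome XIV from 252059 to 253900 on the plus strand) had 1978 and 1959.7 FPKM in LSM5-OE, 1797 and 1964 FPKM in TIF35-OE, 1802 and 1954 FPKM in UTP6-OE, 2055 and 1941 FPKM in PRP22-OE, against 2034 and 2066 FPKM in WT. Both overlapped with WT in PRP22-OE and lay below WT in the other strains, with an adjusted p of 0.0769 (SSB1 in TIF35-OE) or more. The coding sequences of SSB1 and SSB2 are 97.5% identical and share 25.5% of their windows of 150 bases, so their separate values are uncertain. Their sum was 4401 and 4135 FPKM in PRP22-OE, against 4349 and 4368 FPKM in WT. ZUO1 and SSZ1 had log2 fold changes between -0.15 (SSZ1 in UTP6-OE) and 0.029 (ZUO1 in TIF35-OE). In the same PRP22-OE cultures 19 of the 25 genes of the cytosol and nucleus were called, 17 lower and 2 higher, with a median log2 fold change of -0.35, while the ribosome-bound genes had a median of -0.042. Of all features, 12.2% were lower and 7.09% higher in PRP22-OE.

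Of the 6 mitochondrial chaperone genes, 3 fell in PRP22-OE, 1 rose and 1 fell in UTP6-OE and 1 rose and 2 fell in TIF35-OE. Of all features, 12.2% fell and 7.09% rose in PRP22-OE, 19.1% and 9.95% in UTP6-OE and 20.7% and 9.62% in TIF35-OE. Counts of so few genes were not tested against these shares. With median of ratios scaling, 1 rose and 3 fell in PRP22-OE and 1 rose and 0 fell in TIF35-OE. Under that scaling 11.9% of all features rose and 10.1% fell in PRP22-OE, and 16.9% and 12.7% in TIF35-OE. SSC1 (YJR045C, chromosome X from 519638 to 521602 on the minus strand), the Hsp70 of the matrix, had 552 and 534 FPKM in LSM5-OE, 477 and 499.6 FPKM in TIF35-OE, 506 and 531 FPKM in UTP6-OE, 525 and 486 FPKM in PRP22-OE, against 566 and 558 FPKM in WT. Every strain culture was below both WT cultures, and the fall was called in TIF35-OE (-0.20, adjusted p = 0.032), but not without any 1 culture of TIF35-OE or WT (0.0673 to 0.162) nor after scaling by the median of ratios (0.139). Its J-domain partner MDJ1 had log2 fold changes of -0.12 in LSM5-OE, -0.23 in TIF35-OE, -0.39 in UTP6-OE and -0.44 in PRP22-OE (adjusted p = 0.223, 0.0141, 0.00131 and 0.00107 from limma). The fall of MDJ1 in TIF35-OE was not called after scaling by the median of ratios (adjusted p = 0.0661). The calls of MDJ1 in UTP6-OE and PRP22-OE did not stay under every alternative. Its log2 fold changes there lay between -0.428 and -0.321 in UTP6-OE and between -0.477 and -0.388 in PRP22-OE. The call of MDJ1 in TIF35-OE was lost without its first or second culture (0.0773 and 0.0534) or the second WT culture (0.0961). MGE1, the exchange factor of SSC1, rose in TIF35-OE (0.25, adjusted p = 0.0221) and UTP6-OE (0.21, adjusted p = 0.0387). These calls of MGE1 were lost without the first TIF35-OE culture (0.128), the first or second UTP6-OE culture (0.0656 and 0.178) or either WT culture (0.0821 and 0.112 in TIF35-OE, 0.115 and 0.169 in UTP6-OE).

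HSP60 (YLR259C, chromosome XII from 663284 to 665002 on the minus strand), the mitochondrial chaperonin, had 422 and 416 FPKM in LSM5-OE, 417 and 408 FPKM in TIF35-OE, 396 and 403 FPKM in UTP6-OE, 390.3 and 364 FPKM in PRP22-OE, against 443 and 433 FPKM in WT. The fall was called in PRP22-OE (-0.22, adjusted p = 0.0207), and the call was lost without the second PRP22-OE culture (0.12) or the first or second WT culture (0.125 and 0.088). HSP10, its lid, is 321 bases long, close to the fragment length, and its values of 567, 659 and 453 FPKM in the 3 libraries of shorter fragments lay below those of 737 to 971 FPKM in the other 7. It was not called in any strain (standard error 0.28), and its strain differences cannot be told apart from the fragment length. HSP78, the Hsp100 of mitochondria, fell in PRP22-OE (-0.25, adjusted p = 0.0394), a call lost without any 1 culture of PRP22-OE or WT (0.108 to 0.181).

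KAR2 (YJL034W, chromosome X from 381327 to 383375 on the plus strand), the Hsp70 of the endoplasmic reticulum, had 511 and 526 FPKM in LSM5-OE, 437 and 456 FPKM in TIF35-OE, 450.2 and 482 FPKM in UTP6-OE, 494 and 472 FPKM in PRP22-OE, against 532 and 527 FPKM in WT. All cultures of the strains lay below both WT cultures, and the falls in TIF35-OE (-0.25, adjusted p = 0.0142) and UTP6-OE (-0.18, adjusted p = 0.0382) were called. The call in TIF35-OE was lost without its first culture (0.0884) or the first or second WT culture (0.0797 and 0.0701), and that in UTP6-OE without its first culture (0.182), without the first or second WT culture (0.158 and 0.134) or after scaling by the median of ratios (0.079).

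The strains were also compared with each other in the same fit, in which the WT cultures enter only the estimate of the spread. Set against TIF35-OE, PRP22-OE had 17 chaperone genes lower and 0 higher, beside 11.3% of all features called in either direction (5.39% lower and 5.93% higher). UTP6-OE set against PRP22-OE had 13 higher and 0 lower, beside 10.1% of all features (3.73% higher and 6.35% lower). Set against LSM5-OE, PRP22-OE had 9 lower and 1 higher, beside 4.82% of all features (4.09% lower and 0.728% higher). UTP6-OE had 5 lower and 5 higher than LSM5-OE, beside 22.8% of all features (16.4% lower and 6.4% higher). TIF35-OE had 2 lower and 3 higher than LSM5-OE, beside 11.4% of all features (8.88% lower and 2.5% higher), while with median of ratios scaling 10 were called, all higher, beside 12.7% of all features. UTP6-OE had 4 lower and 1 higher than TIF35-OE, beside 6.61% of all features (4.14% lower and 2.46% higher). With 1 culture left out, 7 to 8 genes were called between PRP22-OE and TIF35-OE and 6 to 7 between UTP6-OE and PRP22-OE, whichever culture it was, and none of them was in the other direction. Between PRP22-OE and LSM5-OE 5 were called without the first and 4 without the second PRP22-OE culture. Between UTP6-OE and TIF35-OE 2 were called without the second TIF35-OE culture and 3 without the first or the second UTP6-OE culture, and between TIF35-OE and LSM5-OE 2 without either TIF35-OE and 3 without either LSM5-OE culture.

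HSP30 and HSP26 differed most between the strains. HSP30 was lower in PRP22-OE than in TIF35-OE (-1.49 on the log2 scale, standard error 0.084, adjusted p = 8.97e-05) and higher in UTP6-OE than in PRP22-OE (1.58, adjusted p = 7.71e-05). HSP26 was lower in PRP22-OE than in TIF35-OE (-1.28, adjusted p = 0.000186) and LSM5-OE (-1.05, adjusted p = 0.000595). BTN2 was lower in PRP22-OE than in TIF35-OE (-1.05, adjusted p = 0.000288) and higher in UTP6-OE than in PRP22-OE (0.47, adjusted p = 0.0108). APJ1 was lower in UTP6-OE than in TIF35-OE (-0.44, adjusted p = 0.00206), while between UTP6-OE and PRP22-OE it was not called. HSP31 was higher in UTP6-OE than in LSM5-OE (0.88, adjusted p = 7.04e-05), TIF35-OE (0.38, adjusted p = 0.00881) and PRP22-OE (0.41, adjusted p = 0.00545).

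The promoter windows of the 37 genes held heat shock element letters more often than other promoters. A pair of units was found in 25 of the 37 (67.6%), beside 23.6% of the 6020 windows of all protein-coding genes, and 3 alternating units in 14 (37.8%), beside 1.1%. The stress response element was found in 13 of the 37 (35.1%), beside 23.5% of all windows. Of the 21 genes that fell in PRP22-OE, 18 had a pair of units (85.7%), against 7 of the 16 others (43.8%), and 9 of the 21 had 3 units (42.9%), against 5 of the 16 others (31.2%). The stress response element was in 7 of the 21 (33.3%), against 6 of the 16 others (37.5%). SSA1, SSE1, KAR2 and HSP104, which did not fall in PRP22-OE by the test, each have at least 3 pairs, and SSA3, MDJ1 and HSP30, which fell, have none. None of the 4 ribosome-bound genes has a match of any of these motifs. These counts describe the letters, and no test of the difference was made.

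Outside the 37 genes, 60 further genes of folding systems were taken from 7 lists: the chaperonin TRiC with prefoldin, other J-domain proteins, other Hsp70 proteins and exchange factors, other Hsp90 co-chaperones, the nascent chain associated complex, folding in the endoplasmic reticulum, and other mitochondrial quality control. In PRP22-OE 5 of the 60 were lower and 1 higher, in LSM5-OE 0 were called, in TIF35-OE 5 were lower and 4 higher and in UTP6-OE 3 lower and 5 higher, in shares below those of all features as deposited. With median of ratios scaling 10 were higher and 4 lower in PRP22-OE (23.3%, beside 11.9% of all features higher and 10.1% lower). In UTP6-OE 10 were higher and 3 lower (21.7%), beside 17.7% and 14.9% of all features. In TIF35-OE 11 were higher and 2 lower (21.7%), beside 16.9% and 12.7% of all features. Rises outnumbered falls in these strains, as they did among all features under that scaling. Their median log2 fold change in PRP22-OE was -0.052, beside -0.051 for all features. Without single cultures the counts were 0 to 1 in LSM5-OE, 1 to 3 in TIF35-OE, 2 to 6 in UTP6-OE and 1 to 3 in PRP22-OE. In LSM5-OE, where 0 of the 60 passed in limma and 9 had an unadjusted p under 0.05, scaling by the median of ratios gave 1.

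Of the 15 genes of TRiC and prefoldin, which fold actin and tubulin, 3 fell in TIF35-OE, 1 in UTP6-OE and 1 in PRP22-OE. Of all features, 20.7% fell in TIF35-OE, 19.1% in UTP6-OE and 12.2% in PRP22-OE. The TRiC subunit CCT4 had log2 fold changes of -0.13 in LSM5-OE, -0.20 in TIF35-OE, -0.14 in UTP6-OE and -0.23 in PRP22-OE, and the prefoldin subunit GIM3 of -0.17 in LSM5-OE, -0.52 in TIF35-OE, -0.43 in UTP6-OE and -0.19 in PRP22-OE. SSQ1, the mitochondrial Hsp70 of iron-sulfur cluster assembly, fell in all but LSM5-OE, with log2 fold changes of -0.17 in LSM5-OE, -0.35 in TIF35-OE, -0.31 in UTP6-OE and -0.33 in PRP22-OE. Of the 17 other J-domain proteins, CAJ1 rose in TIF35-OE and SCJ1 and CWC23 fell in PRP22-OE. In the endoplasmic reticulum the disulfide isomerase relative MPD2 had 0.10 in LSM5-OE, 0.27 in TIF35-OE, 0.31 in UTP6-OE and 0.20 in PRP22-OE and rose in all but LSM5-OE, while the oxidase ERO1 fell in UTP6-OE and PRP22-OE (-0.12 in LSM5-OE, -0.17 in TIF35-OE, -0.24 in UTP6-OE and -0.29 in PRP22-OE). None of the 3 genes of the nascent chain associated complex was called by limma, and 0 had an unadjusted p under 0.05.

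Of the regulators of these genes, MSN4 and GAC1 rose in all 4 strains. HSF1, named after its values were seen, had 62.6 and 72.3 FPKM in LSM5-OE, 65.3 and 63.2 FPKM in TIF35-OE, 61.3 and 58.3 FPKM in UTP6-OE, 62.7 and 65.2 FPKM in PRP22-OE, against 71.0 and 72.0 FPKM in WT. It fell in UTP6-OE only by the test, with log2 fold changes of -0.088 in LSM5-OE, -0.15 in TIF35-OE, -0.26 in UTP6-OE and -0.16 in PRP22-OE (adjusted p = 0.0319 in UTP6-OE from limma). MSN4 had 102 and 113 FPKM in LSM5-OE, 86.5 and 92.7 FPKM in TIF35-OE, 92.7 and 85.3 FPKM in UTP6-OE, 118 and 129 FPKM in PRP22-OE, against 71.0 and 70.8 FPKM in WT, and rose in all 4 strains (0.59 in LSM5-OE, 0.33 in TIF35-OE, 0.32 in UTP6-OE and 0.80 in PRP22-OE). Every strain culture of MSN4 lay above both WT cultures. GAC1, a regulatory subunit of the phosphatase Glc7, rose in all 4 strains (0.55 in LSM5-OE, 0.58 in TIF35-OE, 0.66 in UTP6-OE and 0.86 in PRP22-OE), and RPN4, the activator of proteasome genes, fell in all but LSM5-OE (-0.14 in LSM5-OE, -0.26 in TIF35-OE, -0.49 in UTP6-OE and -0.26 in PRP22-OE). Of the 8 regulators, 2 rose and 0 fell in LSM5-OE, 2 and 3 in TIF35-OE, 2 and 3 in UTP6-OE, and 2 and 1 in PRP22-OE. Of all features, 4.7% rose and 2.95% fell in LSM5-OE, and 9.62% and 20.7% in TIF35-OE. In UTP6-OE these shares were 9.95% and 19.1%, and in PRP22-OE 7.09% and 12.2%. With 1 culture left out these counts of called regulators were 1 to 2 in LSM5-OE, 1 to 2 in TIF35-OE, 2 to 3 in UTP6-OE and 2 in PRP22-OE.

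Most of the listed stress genes known as targets of Msn2 and Msn4 rose in every strain. Of the 14 listed, 13 were in the table of tested features, and 11 rose and 0 fell in LSM5-OE, 12 and 0 in TIF35-OE, 13 and 0 in UTP6-OE and 11 and 1 in PRP22-OE. Of all features, 4.7%, 9.62%, 9.95% and 7.09% rose in the same order of strains. The list was chosen with earlier results known and holds none of the 37 chaperone genes. The median log2 fold change of the 13 was 0.59 in LSM5-OE, 0.58 in TIF35-OE, 0.94 in UTP6-OE and 1.06 in PRP22-OE. PGM2, the phosphoglucomutase, had log2 fold changes of 1.20 in LSM5-OE, 1.29 in TIF35-OE, 1.53 in UTP6-OE and 1.59 in PRP22-OE, and the glycogen phosphorylase GPH1 of 1.12 in LSM5-OE, 1.04 in TIF35-OE, 1.38 in UTP6-OE and 1.44 in PRP22-OE. ALD3, an aldehyde dehydrogenase, fell in PRP22-OE and rose in UTP6-OE (0.081 in LSM5-OE, -0.025 in TIF35-OE, 0.21 in UTP6-OE and -0.36 in PRP22-OE). In LSM5-OE 7 of the 13 were called without the first WT culture. Among the other genes named for heat shock, HSP12, which is also on the Msn2 and Msn4 list, rose in all 4 strains (0.77 in LSM5-OE, 0.96 in TIF35-OE, 2.11 in UTP6-OE and 1.50 in PRP22-OE), and HSP150, a cell wall protein, fell in all but LSM5-OE (-0.02 in LSM5-OE, -0.27 in TIF35-OE, -0.42 in UTP6-OE and -0.42 in PRP22-OE). In the same strains the 37 chaperone genes had median log2 fold changes below that of all features, though only slightly so in TIF35-OE.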

How the data were processed

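Both tables deposited by the authors hold FPKM for 10 cultures. The one named as raw was identical to the normalised one in all 58240 cells, so no counts were tested. The methods name HISAT2, featureCounts, a filter of edgeR and DESeq2, while the submitters' processing notes name STAR, RSEM, edgeR and limma, and which of them computed FPKM is not given in the sources used here. Cultures were assigned to strains from their labels. The genes and lists were chosen with earlier results of these data known.

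Tests used limma (version 3.58.1, R version 4.3.3; lmFit, eBayes with a trend) on log2(FPKM + 0.5), over 5768 features whose mean reached 1 FPKM, in 1 fit of all 10 libraries with 5 residual degrees of freedom. Fold changes of low genes are understated by the added 0.5. P-values are two-sided, adjusted by the Benjamini-Hochberg method over all features within each comparison, and measure the spread between cultures. The test was checked on simulated data with independent noise. The simulation held no difference in fragment length between libraries, so it does not cover that feature of the data. A design with DESeq2 was not possible without counts.

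Values per culture were given for genes called with an absolute log2 fold change of 0.5 or more and both cultures beyond both WT cultures, for related gene sets (HSP82 and HSC82, SSA1 to SSA4, SSB1 and SSB2, SSE1 and SSE2), and for HSP104, KAR2, HSP60 and SSC1. From other lists at most the 2 largest called rises and falls by mean log2 fold change were named. Promoters followed the rule given beside them.

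The depth was estimated from features of 450 to 2500 bases under 4 FPKM, where 75% to 92.9% of the values lay within 0.15 of a whole number of fragments. These steps rest on a fitted fragment length and were not used as counts. Libraries of shorter fragments were those with RPS30A listed above 0. Alternatives were pseudocounts of 0.1 and 1, all features kept, only features whose mean reached 5 FPKM, scaling by the median of ratios, no trend, only the strain compared and WT, a replicate block, features of at least 400 bases, the fragment class as a covariate or those libraries left out, and each culture left out. Sequences were read with Python 3.11.15 and Biopython 1.88 from the RefSeq R64 genome.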

Additional observations from a re-analysis of the deposited data

Results flagged for a closer look

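The strains differed in the response of HSP26 and HSP30, by a test of the difference itself in limma. HSP26 was higher in TIF35-OE than in WT and lower in PRP22-OE than in WT, and the difference of the log2 fold changes, PRP22-OE less TIF35-OE, was -1.28 (adjusted p = 0.000186). HSP30 was lower in PRP22-OE and higher in TIF35-OE, with a difference of -1.49 (adjusted p = 8.97e-05). HSP30 was also higher in UTP6-OE, and the difference UTP6-OE less PRP22-OE was 1.58 (adjusted p = 7.71e-05). In each case the 2 cultures of a strain lay on the same side of both WT cultures. The fall of HSP30 in PRP22-OE and the rise of HSP26 in TIF35-OE were not called under every alternative. Their log2 fold changes there lay between -0.554 and -0.447 and between 0.379 and 0.525.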

How the results depend on the processing

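No call among the 37 chaperone genes was reversed. Of the 61 calls, 0 were lost with pseudocounts of 0.1 or 1, with no filter, with a minimum mean of 5 FPKM or with features of at least 400 bases, 3 with no trend, 4 with the fragment class as a covariate, 11 after the median of ratios, 16 with only the strain compared and WT, 40 without the short-fragment libraries and 31 without either WT culture. Scaling by the median of ratios changed the sign of 13 results that were not called.

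Culture numbers do not pair the samples: the correlations between strains of their culture differences lay between -0.36 and 0.432. With a replicate block, 8 of the 61 calls were lost and 3 gained, 3 genes instead of 5 were called between TIF35-OE and LSM5-OE, and 1 of the 60 other folding genes in LSM5-OE.

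With only the strain compared and WT, in LSM5-OE 0 chaperone genes, 66 of all features, 6 Msn2 and Msn4 genes and 0 regulators were called, and in PRP22-OE 3 of the 60 other folding genes. After the median of ratios, 10 chaperone genes were called between TIF35-OE and LSM5-OE, 1, 13 and 14 of the 60 in LSM5-OE, UTP6-OE and PRP22-OE, and 3 regulators in TIF35-OE, and the median log2 fold changes of the chaperone genes were -0.087 in LSM5-OE, -0.022 in TIF35-OE, -0.074 in UTP6-OE and -0.20 in PRP22-OE. With features of at least 400 bases, 1 of the 60 was called in LSM5-OE and the median in TIF35-OE was -0.111. With the fragment class as a covariate, 5 of the 60 were called in TIF35-OE and the median there was -0.084. Without the short-fragment libraries, which leaves fewer degrees of freedom, 0, 5, 7 and 9 chaperone genes and 61, 243, 553 and 228 of all features were called in LSM5-OE, in TIF35-OE, in UTP6-OE and in PRP22-OE. In that fit 0 of the 60 were called in each of the 4 strains, 0, 0, 1 and 1 regulators in the 4 strains, 6 Msn2 and Msn4 genes in LSM5-OE, and the median in TIF35-OE was -0.105.

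With 1 culture left out, chaperone genes called numbered 0 to 3 in LSM5-OE, 6 to 8 in TIF35-OE, 8 to 12 in UTP6-OE and 15 to 18 in PRP22-OE against WT, 2 to 3 for TIF35-OE and LSM5-OE, 7 to 9 for UTP6-OE and LSM5-OE, 4 to 10 for PRP22-OE and LSM5-OE, 2 to 4 for UTP6-OE and TIF35-OE, 7 to 8 for PRP22-OE and TIF35-OE and 6 to 7 for UTP6-OE and PRP22-OE. All features called numbered 82 to 360 in LSM5-OE, 721 to 961 in TIF35-OE, 864 to 1032 in UTP6-OE and 518 to 720 in PRP22-OE. Of the 60 other folding genes 0 to 1, 1 to 3, 2 to 6 and 1 to 3 were called in the same order of strains, of the regulators 1 to 2, 1 to 2, 2 to 3 and 2 to 2, and of the Msn2 and Msn4 genes 7 to 11 in LSM5-OE. The median of the chaperone genes ranged from -0.10 to -0.078 in LSM5-OE, -0.126 to -0.105 in TIF35-OE, -0.167 to -0.097 in UTP6-OE and -0.265 to -0.227 in PRP22-OE. A fit without a culture assumes that the lone sample varies like the other strains, and the causes were not tested.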
